A study of Mus musculus with 10 samples.

Results

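The Ccl2 chemokine cluster is a run of 6 genes on mouse chromosome 11, Ccl2, Ccl7, Ccl11, Ccl12, Ccl8 and Ccl1, and its chromatin loops were examined in bone marrow-derived macrophages (BMDMs) that had seen IL-4, IFNG, both or neither. A loop was assigned to the cluster when an anchor, a 10 kb bin, overlapped the 100 kb on either side of the transcription start site (TSS) of any of the 6 genes. These 6 of 21755 annotated protein-coding genes had 72 distinct loops (pairs of bins) of 153264 in the 5 loop lists analysed. Hi-C measures how often pairs of genomic segments are ligated together, and a loop is a pair of bins that a caller marked as being in contact more often than its surroundings.

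BMDMs came from wild-type female C57BL/6 mice of 2 to 3 months and were grown with M-CSF at 20 ng/ml, and treatment started on day 6. The 5 groups were untreated macrophages (M0[CTR]), macrophages given IL-4 at 20 ng/ml for 24 h (M2[IL-4]), macrophages given the same IL-4, washed and rested for 24 h (M2p[pIL-4]), macrophages given IFNG at 20 ng/ml for 3 h (IFNG), and rested IL-4-treated macrophages then given IFNG for 3 h (pIL-4 + IFNG). Each group had 2 samples (10 in all), but 1 list was deposited per group, so no value below has a replicate error, no test of a condition was possible, and a ratio compares 2 lists. The lists hold no expression values, so the macrophage label could not be checked against marker genes.

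Where 5 values stand in a row below, they follow the order in which the groups were just named. List length was 53424, 58260, 67728, 55012 and 67000 loops, with 2174945 to 2787117 contacts per list. A contact count is known for a bin pair only in a list that called it as a loop, and a missing loop therefore does not mean that contacts were absent. Intervals are 95% intervals and cover counting error only. Those for loop numbers and shares take each loop as independent. Many loops of the cluster lie in neighbouring bin pairs, so these intervals are likely too narrow.

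CC chemokines are small secreted proteins that draw leukocytes along a gradient by binding G protein-coupled receptors. Ccl2, Ccl7, Ccl8 and Ccl12 are monocyte chemoattractants, with Ccr2 as a main receptor for several of them, Ccl11 (eotaxin-1) draws eosinophils through Ccr3, and Ccl1 acts on Ccr8. Macrophages are a major source of these proteins in inflamed tissue. Many long-range loops in mammalian genomes are held by cohesin between bound CTCF sites that point toward each other.

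In coordinates of GRCm38 with GENCODE M21, Ccl2 (ENSMUSG00000035385.5) lies on the plus strand at chr11:82035571-82037453. Ccl7 (ENSMUSG00000035373.2) follows at chr11:82045712-82047525 and Ccl11 (ENSMUSG00000020676.2) at chr11:82057823-82062955, both on the plus strand. Ccl12 (ENSMUSG00000035352.3) lies at chr11:82101845-82103400 and Ccl8 (ENSMUSG00000009185.2) at chr11:82115185-82116799, again on the plus strand. Ccl1 (ENSMUSG00000020702.13) is read from the minus strand, and its principal transcript starts at 82179812, 144 kb from the TSS of Ccl2. The gene record of Ccl1 itself runs from 82176657 to 82305690 because it includes a longer processed transcript. Proximal to the cluster are the lincRNA gene Gm31522 (chr11:81983119-82019967) and Asic2, an acid-sensing ion channel gene whose record ends at 81968457.

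Some of the bins at which loops ended held sequences like the CTCF core. The 5 shown here, picked after the loops had been seen, are from 4 bins at which strong loops described below ended. A 14-base CTCF core consensus was searched on both strands, and matches with at most 1 mismatch were kept. Each line gives 40 reference bases (GRCm38) in the direction of the match, with the matched core in capitals.
Bin -50 kb, chr11:81983328-81983367, plus strand, 1 mismatch, exon of Gm31522: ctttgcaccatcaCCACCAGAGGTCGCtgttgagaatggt
Bin -40 kb, chr11:81996342-81996381, plus strand, no mismatch, intron of Gm31522: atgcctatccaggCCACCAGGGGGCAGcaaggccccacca
Ccl7 bin, chr11:82048224-82048263, plus strand, 1 mismatch, between Ccl7 and Ccl11: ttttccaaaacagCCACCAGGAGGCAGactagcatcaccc
Ccl1 bin, chr11:82174949-82174988, minus strand, no mismatch, outside genes: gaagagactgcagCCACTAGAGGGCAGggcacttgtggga
Ccl1 bin, chr11:82177937-82177976, minus strand, 1 mismatch, intron of Ccl1: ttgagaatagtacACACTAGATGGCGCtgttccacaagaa
The exact match of the -40 kb bin and the exact match of the Ccl1 bin thus pointed toward each other across Ccl2, Ccl7, Ccl11, Ccl12 and Ccl8. The Ccl1 bin also held a plus-strand match with 1 mismatch at chr11:82178359-82178372, and the -60 kb bin held one at chr11:81972226-81972239. The bin past the Ccl1 bin (chr11:82180001-82190000), the -30 kb bin and the bin before Ccl1, with 43, 22 and 19 calls over the lists, held no match. Such a match is a description of the letters and not a measured CTCF site. Of the 33 bins that anchored loops of the cluster, 8 (24.2%) held a match and 3 an exact one, against 26.1% and 3.79% of the 11875 sequenced bins of chromosome 11.

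The cluster was organised around the bin that holds the Ccl1 TSS. This TSS, at 82179812, lies near the end of its bin, so that sequence further upstream of Ccl1 falls in the adjoining bin. A promoter bin below is the bin with the TSS of a gene. M0[CTR] had 28 loops at the cluster, M2[IL-4] had 29, M2p[pIL-4] had 35, IFNG had 41 and pIL-4 + IFNG had 47. Of these, 12, 11, 11, 12 and 14 ended in the bin with the Ccl1 TSS (chr11:82170001-82180000). A further 8, 9, 9, 8 and 9 ended in the adjoining bin (chr11:82180001-82190000). In every list the median anchor bin of the genome had 2 loops, and bins with at least as many loops as the Ccl1 bin made up 1.12%, 1.86%, 2.46%, 1.25% and 0.802% of the anchor bins.

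The partners lay on 1 side. All 60 calls at the Ccl1 bin and all 43 at the adjoining bin, summed over the 5 lists, joined a bin on the Ccl2 side, and none joined a bin beyond Ccl1. One-sidedness was common among bins with 10 or more loops, where it was seen in 74.5%, 73.8%, 72.0%, 77.8% and 70.0% of such bins. The most frequent partners of these 2 bins were the bins at -60, -50 and -40 kb from the Ccl2 bin and the bins of Ccl7 and Ccl11, each with 10 calls over the lists, 5 with either bin. The Ccl2 bin had 5, all with the Ccl1 bin. Counting every loop of the cluster, the bins at -40, -50 and -30 kb had 25, 23 and 22 calls and the Ccl7 bin had 20.

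**Figure D1:**
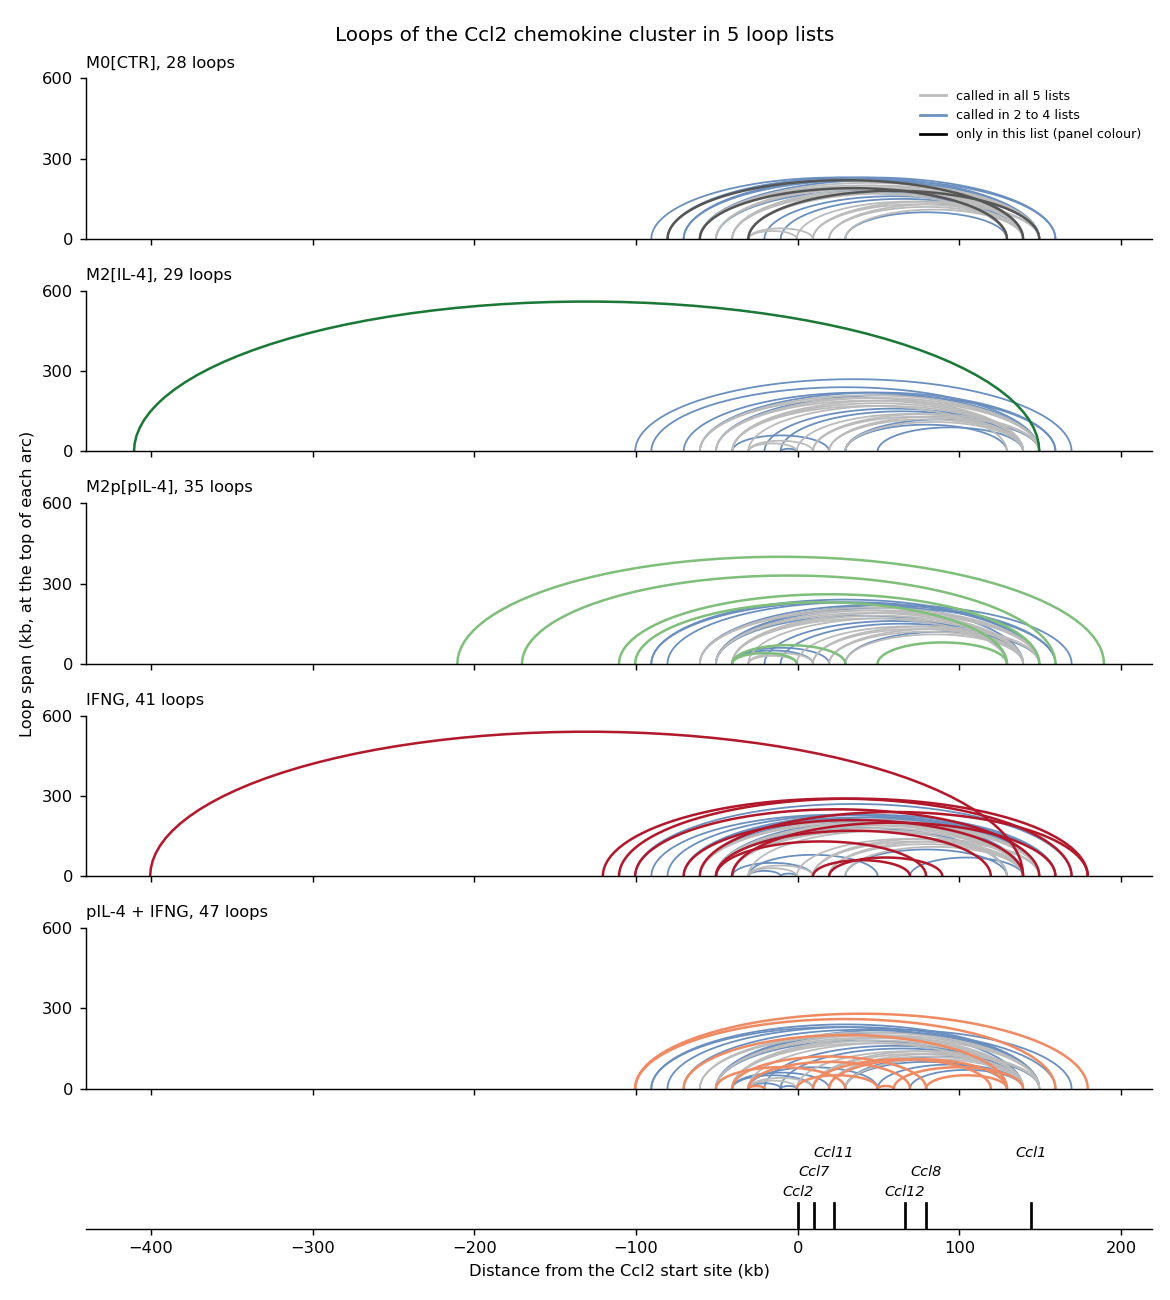
Each panel shows the loops of the cluster in 1 list as arcs between the centres of both bins, with distance from the Ccl2 start site in kb on the horizontal axis and loop span in kb at the top of each arc. Grey arcs were called in all 5 lists, blue arcs in 2 to 4 and arcs in the panel's own colour in that list only. Most arcs end at the right near Ccl1, and short arcs inside the cluster are more numerous in the IFNG and pIL-4 + IFNG panels.

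Of the 72 bin pairs, 16 were called in all 5 lists, 9 in 4, 5 in 3, 7 in 2 and 35 in 1 list. Strength was taken as the count of a loop divided by the median for loops of its span in its own list. The strongest of the 16 joined the -50 kb bin (chr11:81980001-81990000), which holds the 3′ end of Gm31522, with the Ccl1 bin. M0[CTR] showed 65 contacts there, M2[IL-4] showed 80, M2p[pIL-4] showed 88, IFNG showed 81 and pIL-4 + IFNG showed 89, against a median of 29 to 30 at its span of 190 kb. Its neighbour, from the same -50 kb bin to the bin next to Ccl1, had 64, 62, 66, 81 and 79 contacts. The loop from the -40 kb bin with the exact CTCF match to the Ccl1 bin had 72, 67, 66, 75 and 66. These 3 loops were the most prominent of the locus in untreated macrophages and stayed among the called loops after every treatment.

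The fourth strongest constant loop joined the promoter bins of Ccl7 and Ccl1. It had 57 contacts (43.2 to 73.9), 76 (59.9 to 95.1), 62 (47.5 to 79.5), 69 (53.7 to 87.3) and 90 (72.4 to 110.6). Untreated macrophages had the fewest and pIL-4 + IFNG the most, and the counting intervals of these 2 lists still overlapped. The fifth, from the -60 kb bin (chr11:81970001-81980000) to the bin beside Ccl1, had 51, 57, 43, 63 and 55 contacts.

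**Figure D2:**
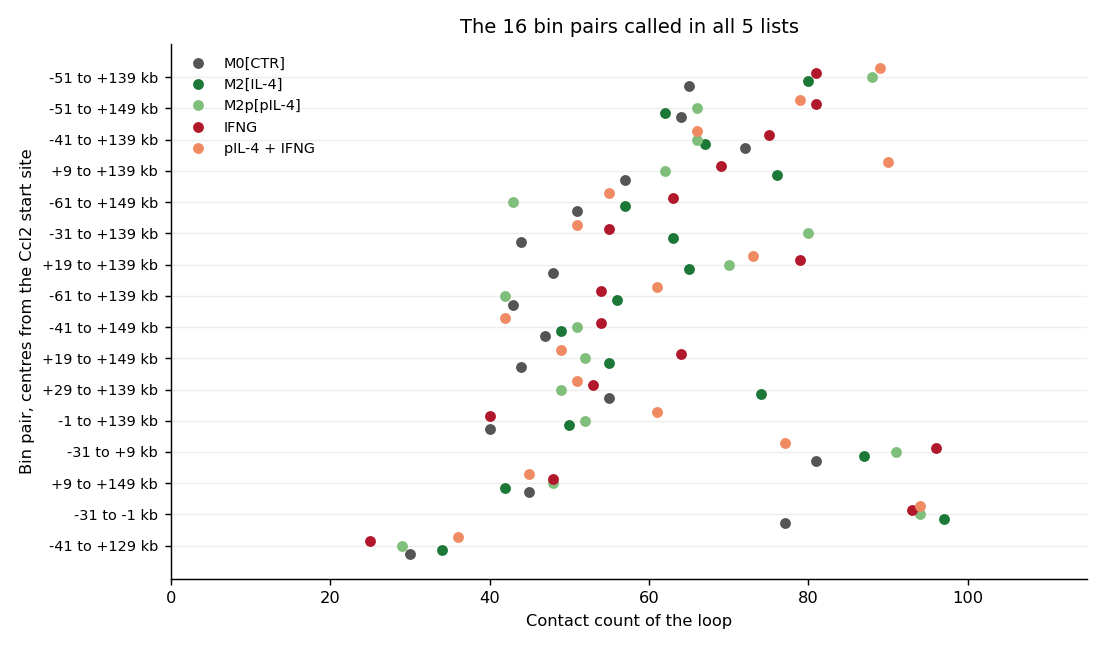
Contact counts (horizontal axis) of the 16 bin pairs called in all 5 lists, ordered from the strongest at the top, 1 point per list, with the centres of both bins given in kb from the Ccl2 start site. The loop in the top row has 65 contacts in M0[CTR] and 80 to 89 in the other lists.

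Summed over the 16 constant pairs, contacts numbered 863, 1014, 983, 1030 and 1019. The untreated list was the lowest, and the 4 others lay close together. The log2 ratio to M0[CTR] was 0.23 for M2[IL-4] (0.10 to 0.37), 0.19 for M2p[pIL-4] (0.05 to 0.32) and 0.26 for IFNG (0.12 to 0.39). Over the 14063 bin pairs of the genome called in all 5 lists, the summed contacts of the treated lists were 0.998 to 1.04 times those of M0[CTR]. Among 3535 genes with at least 10 such pairs within 100 kb, 98.4% had a ratio at or below that of the cluster for M2[IL-4] over M0[CTR], 96.7% for M2p[pIL-4] over M0[CTR] and 98.2% for IFNG over M0[CTR]. The ratios between treated lists were smaller, at -0.04 for M2p[pIL-4] over M2[IL-4], 0.05 for pIL-4 + IFNG over M2p[pIL-4] and -0.02 for pIL-4 + IFNG over IFNG, and their intervals included 0. The comparisons with M0[CTR] share that 1 list, whose replicate spread is unknown.

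Single loops seldom passed 1.5-fold, the ratio used as a call. In M2[IL-4] over M0[CTR], 16 of 21 bin pairs called in both lists had more contacts and 4 fewer, and 1 was past 1.5-fold higher and 0 lower, where 2.19% and 1.66% of all such pairs of the genome were. That pair joined the -20 kb bin to the Ccl1 bin, with 60 contacts against 39. In M2p[pIL-4] over M0[CTR], 14 of 22 had more contacts and 7 fewer. Past 1.5-fold, 1 was higher and 0 lower (2.53% and 1.20% of the genome's pairs). The higher one joined the -30 kb bin to Ccl1 with 80 contacts against 44. In M2p[pIL-4] over M2[IL-4], 11 of 23 had more contacts and 12 fewer. Past 1.5-fold, 0 were higher and 1 lower (2.44% and 1.39%). The lower one ran from the 30 kb bin, which holds the 3′ end of Ccl11, to Ccl1, with 49 against 74.

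In IFNG over M0[CTR], 19 of 23 shared pairs had more contacts and 3 fewer, and 1 was past 1.5-fold higher and 0 lower (2.75% and 1.18% of the genome's pairs). This was the loop between the Ccl11 and Ccl1 promoter bins, with 79 contacts against 48, a log2 ratio of 0.72 (0.18 to 1.27). In pIL-4 + IFNG over M2p[pIL-4], 15 of 27 had more contacts and 10 fewer. Past 1.5-fold, 0 were higher and 1 lower (1.67% and 2.10%), the loop from the -30 kb bin to Ccl1, with 51 against 80. In pIL-4 + IFNG over IFNG, 9 of 27 had more contacts and 18 fewer. Past 1.5-fold, 1 was higher and 1 lower (1.68% and 2.06%). The higher one joined Ccl2 to Ccl1 with 61 contacts against 40, and the lower one, away from any promoter of the cluster, had 32 against 51. With 21 to 27 pairs in a comparison, at most 1 pair each way was past the fold, which is not a result beyond the genome's shares.

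The promoter bins of Ccl2, Ccl7 and Ccl11 were each joined to the Ccl1 promoter bin in all 5 lists. So were the bins at -60, -50, -40, -30 and 30 kb, which hold no start site of a protein-coding gene. The 30 kb bin had 55, 74, 49, 53 and 51 contacts with the Ccl1 bin. A constant loop to the Ccl1 bin was therefore not particular to promoter bins. The Ccl2 to Ccl1 loop had 40 contacts untreated, 50 with IL-4, 52 after washout, 40 with IFNG and 61 with IFNG after priming, against a median near 35 at 140 kb in M0[CTR] and IFNG. The Ccl11 to Ccl1 loop, over 120 kb, had 48, 65, 70, 79 and 73. The Ccl2 loop was thus the weakest of the 3 in each list, and the Ccl7 loop the strongest in M0[CTR], M2[IL-4] and pIL-4 + IFNG, with Ccl11 ahead in M2p[pIL-4] and IFNG. The intervals of neighbours in that order overlapped in each list. In IFNG the interval of Ccl2 (28.6 to 54.5) lay below that of Ccl11 (62.5 to 98.5). The Ccl2 bin also holds the TSS of the gene Gm17268, which the bins cannot separate from Ccl2.

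**Figure D3:**
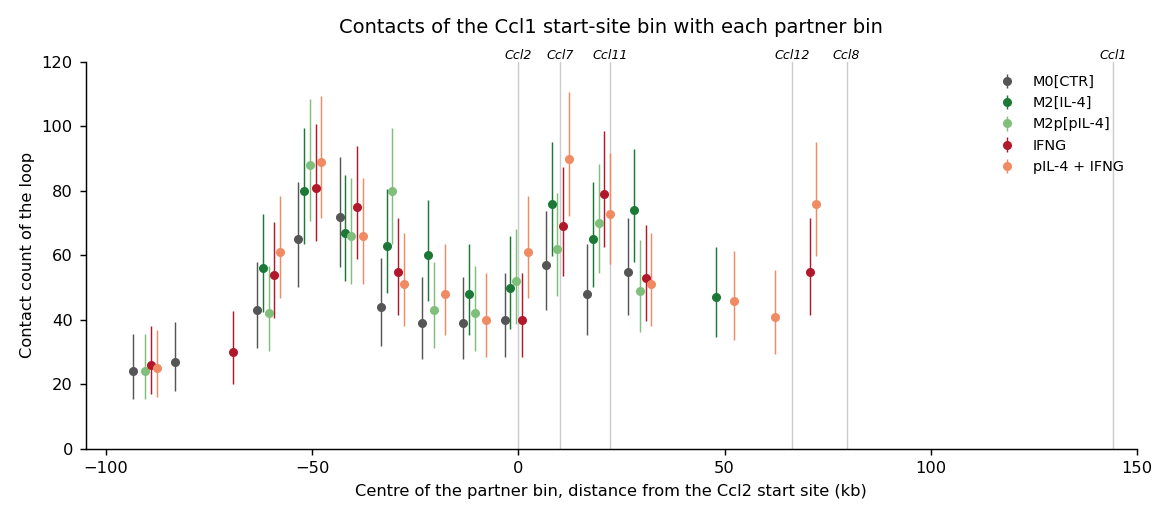
Contact counts (vertical axis) of loops between the Ccl1 start-site bin and each partner bin, placed by the distance of the partner's centre from the Ccl2 start site in kb, with 95% Poisson intervals. Points are drawn side by side for the 5 lists. Vertical lines mark the start sites, and 1 loop of IFNG with a span of 540 kb lies outside the plot. Counts peak near -50 kb and again at Ccl7 and Ccl11, and points at the Ccl12 bin come from the IFNG and pIL-4 + IFNG lists.

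Besides the Ccl1 contacts, Ccl2 had a constant short loop to the -30 kb bin (chr11:82000001-82010000) inside Gm31522, with 77, 97, 94, 93 and 94 contacts. Ccl7 had one to the same bin, with 81, 87, 91, 96 and 77. Relative to their spans of 30 and 40 kb these were modest, at 1.25 and 1.37 times the median on average. In all, the Ccl2 bin had 2, 3, 3, 3 and 4 loops, the Ccl7 bin 3, 3, 4, 5 and 5, and the Ccl11 bin 2, 3, 3, 3 and 4. The untreated list had the fewest or tied for the fewest at each of the 3.

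Ccl12 and Ccl8 stood apart. Their start-site bins had 0 loops in each of the 3 lists without IFNG. The Ccl12 bin had 2 loops in each IFNG-treated list, and the Ccl8 bin had 1 in IFNG against 2 after priming. Of 11740 genes with a loop at the TSS bin in any list, 208 (1.77%) had loops in both IFNG-treated lists and none in the other 3. Of the 6 genes of the cluster, 2 had that pattern, Ccl12 and Ccl8. Their bins adjoin each other and count among the 11740 only through loops of the IFNG-treated lists. This comparison was not planned, so the share is given as a description and not as a test. For comparison, 2.58% of genes had loops only in the 2 lists with IL-4 washout, 1.65% only in M2[IL-4] plus M2p[pIL-4], and 0.869% only in M0[CTR] plus M2[IL-4], and none of the 6 genes was among them.

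The Ccl12 loops were few but included promoter pairs. The Ccl12 to Ccl1 loop had 55 contacts (41.4 to 71.6) in IFNG, and after priming it had 76 (59.9 to 95.1), or 1.10 and 1.58 times the median at 70 kb. A Ccl7 to Ccl12 loop with 67 contacts was called in IFNG, and a loop from Ccl12 to the -30 kb bin with 54 contacts in pIL-4 + IFNG. The Ccl8 bin was joined to the -50 kb bin in IFNG with 40 contacts, and in pIL-4 + IFNG to the -40 kb bin with 29 and to the bin before Ccl1 (chr11:82160001-82170000) with 55. In that order the loops of Ccl8 had 1.08, 0.78 and 0.98 times the median at their spans, so none stood out in strength. In the 40 kb from 82090001 to 82130000, which holds both genes and was chosen after the loops were seen, IFNG had 4 loops and pIL-4 + IFNG 6, of 9 distinct bin pairs in all, so the Ccl12 to Ccl1 loop was the pair both lists called. The other 3 lists had none there. At 70 kb the lowest count called anywhere was 21, 22 and 23 in those lists, and counts at pairs without a call are not given.

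**Figure D4:**
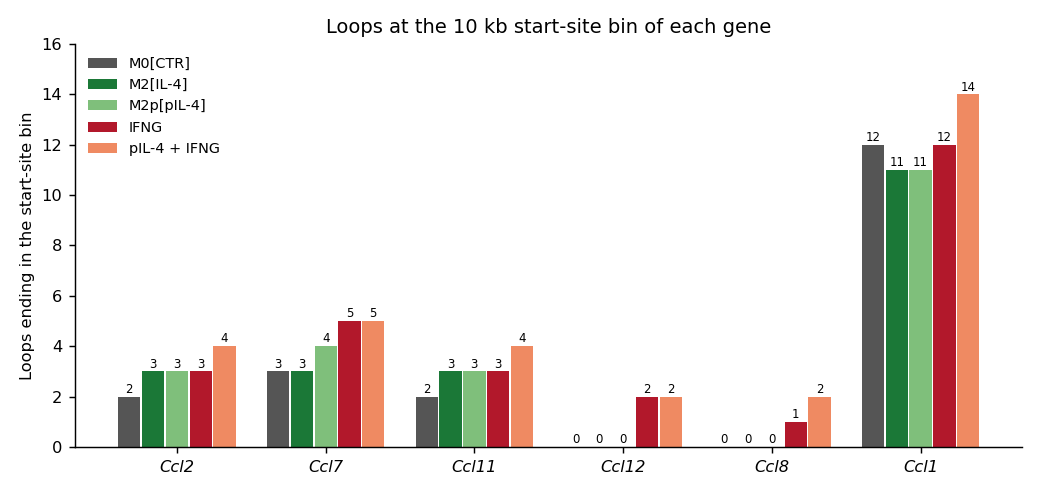
Number of loops ending in the 10 kb start-site bin of each gene (vertical axis), 1 bar per list with the number above it. Ccl1 has 11 to 14 in each list, and Ccl12 and Ccl8 have bars in IFNG and pIL-4 + IFNG and 0 in the other 3 lists.

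The promoters of Ccl12 and Ccl8 are shown because their bins had loops in IFNG-treated lists. RefSeq promoter sequences (GRCm38.p6) were at hand for 3 of the 6 genes, Ccl12, Ccl8 and Ccl1, and cover 250 bases before to 50 after the start. Each line gives the 150 bases up to the start, with the TATAAA box in capitals.
Ccl12, chr11:82101695-82101844, plus strand: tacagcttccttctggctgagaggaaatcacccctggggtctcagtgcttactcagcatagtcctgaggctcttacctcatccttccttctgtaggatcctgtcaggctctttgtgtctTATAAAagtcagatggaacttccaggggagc
Ccl8, chr11:82115035-82115184, plus strand: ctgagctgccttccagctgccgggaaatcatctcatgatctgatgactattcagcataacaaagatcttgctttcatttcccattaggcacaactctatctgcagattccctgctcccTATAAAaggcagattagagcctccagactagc
The box starts at -31 in Ccl12 and at -32 in Ccl8, and 8.32% of 32851 promoters hold these letters on the gene's strand. The letters TTCNNNNGAA, a STAT6-type motif, occurred on either strand in none of the 3 windows (6.95% of promoters hold them), nor did GAAANNGAAA, an interferon-stimulated response element-like motif (3.44%). GGGNNNNNCC, an NF-kB-type motif held by 50.8% of promoters, occurred in Ccl1 from -196 as a pair of overlapping matches on opposite strands.

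Loops not ending at the Ccl1 bin or its neighbour accounted for most of the spread between lists. The 2 bins together had 20, 20, 20, 20 and 23 loops, and all other loops of the cluster numbered 8, 9, 15, 21 and 24. This split was made after the loops had been seen. Loops called in 1 list only numbered 3, 1, 7, 11 and 13. Both IFNG-treated lists, and no other, called 3 pairs. These joined the -30 kb bin to the -10 kb bin (107 and 97 contacts), the -30 kb bin to the 50 kb bin (48 and 50) and Ccl12 to Ccl1. The 3 lists with IL-4 exposure, and no other, also called 3 pairs, led by a loop from the bin past Ccl11 to the bin beside Ccl1 with 44, 52 and 50 contacts, and including one from the -40 kb bin to Ccl11 with 43, 42 and 49. The share of the genome's bin pairs with each of these list patterns was not taken, and the lists differ in length. These counts therefore describe the cluster and are not a result about a treatment.

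The lists differed in length, so loop numbers were also read against it. The cluster held 0.0524% (0.0363 to 0.0757), 0.0498% (0.0347 to 0.0715), 0.0517% (0.0372 to 0.0719), 0.0745% (0.0549 to 0.101) and 0.0701% (0.0528 to 0.0933) of the lists. The 2 IFNG-treated lists had the highest shares, with intervals that overlapped those of the other 3. When touching bin pairs were merged into 1 loop, 2, 7, 7, 12 and 9 loops remained. Scaled by list length, the log2 ratio of the cluster was 0.49 for IFNG over M0[CTR] (-0.22 to 1.26) and 0.43 for pIL-4 + IFNG over M2p[pIL-4] (-0.22 to 1.12). It was -0.07 for M2[IL-4] over M0[CTR], -0.02 for M2p[pIL-4] over M0[CTR], 0.05 for M2p[pIL-4] over M2[IL-4] and -0.09 for pIL-4 + IFNG over IFNG. After merging, M2[IL-4] had a ratio to M0[CTR] of 1.32, the washout list one of 1.22 and IFNG one of 2.08, so the first 2 turned from near 0 to past 1.5-fold. For pIL-4 + IFNG over IFNG the merged ratio was -0.57.

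No gene of the cluster passed 1.5-fold in loops within 100 kb in any of the 6 comparisons. With touching bin pairs merged, 18 of the 36 ratios were higher by that fold and 3 lower. The share of all genes past the fold after merging was not taken, so these counts are not a result about the cluster. The windows overlap, so the 6 genes share most of their loops and are not separate observations. Within 100 kb, Ccl2 had 28, 28, 32, 38 and 47 loops, Ccl7 28, 27, 31, 36 and 45, Ccl11 27, 26, 29, 35 and 43, Ccl12 28, 29, 34, 39 and 46, Ccl8 28, 29, 34, 41 and 47, and Ccl1 26, 25, 29, 36 and 39. In these unscaled numbers all 6 were highest in pIL-4 + IFNG and second in IFNG. Scaled by list length, Ccl12, Ccl8 and Ccl1 were lower in pIL-4 + IFNG than in IFNG, with log2 ratios of -0.05, -0.09 and -0.16, and Ccl2, Ccl7 and Ccl11 were at 0.02, 0.04 and 0.01. In IFNG over M0[CTR] their log2 ratios ran from 0.31 for Ccl7 to 0.49 for Ccl8 with a median of 0.40, at percentiles from 78.3 to 87.4 of the 12243 genes tested, whose median was -0.03. In that comparison 10.2% of genes passed 1.5-fold higher and 8.52% lower. In pIL-4 + IFNG over M2p[pIL-4] they ran from 0.43 for Ccl1 to 0.57 for Ccl11 with a median of 0.50, at percentiles from 87.5 to 91.6, where 8.20% of genes passed higher and 6.12% lower.

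Counted as called bin pairs within 100 kb, the comparisons without IFNG gave small ratios. In M2[IL-4] over M0[CTR] the median of the 6 genes was -0.15, where 9.15% of all genes passed 1.5-fold higher and 7.82% lower. In M2p[pIL-4] over M0[CTR] it was -0.16 (8.04% and 4.75%), and in M2p[pIL-4] over M2[IL-4] it was -0.01 (8.09% and 5.73%). With touching bin pairs merged the ratios to M0[CTR], whose counts were then 1 or 2 per gene, were positive, with M2[IL-4] at 0.65 or more and M2p[pIL-4] between 0.55 and 1.63. Between the 2 IFNG-treated lists, pIL-4 + IFNG over IFNG, the median of the 6 genes without merging was -0.02 (8.25% and 4.45%). With merging, their ratios in that comparison ran from -0.64 for Ccl1 to -0.45 for Ccl2. Within 50 kb, genes of the middle of the cluster were past 1.5-fold. Ccl12 had 4, 7, 7, 10 and 18 loops in that window and Ccl8 5, 5, 7, 10 and 18, so that in both the IFNG-treated lists had the most. In IFNG over M0[CTR] these 2 of the 6 genes were past the fold, with log2 ratios of 1.10 and 0.84, at percentiles of 97.3 and 95.3 of the 9738 genes tested, of which 9.88% passed higher and 10.1% lower. In pIL-4 + IFNG over M2p[pIL-4], 4 of the 6 were past it (8.38% of genes higher and 6.52% lower), with 1.26 for Ccl12 and Ccl8, 0.70 for Ccl11 and 0.62 for Ccl7. Ccl2 (0.39 and 0.48) and Ccl1 (0.29 and 0.24) were past it in neither comparison. Whether the IFNG ratio differed between unprimed and primed macrophages could not be tested with 1 list per group.

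**Figure D5:**
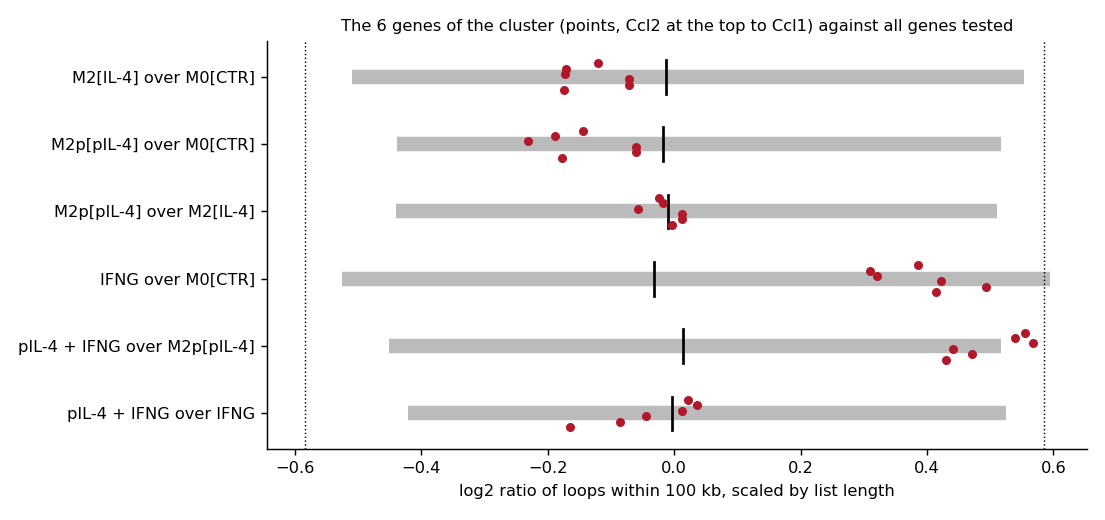
Points are the log2 ratios of loops within 100 kb (horizontal axis, scaled by list length) of Ccl2, Ccl7, Ccl11, Ccl12, Ccl8 and Ccl1, from top to bottom in each of 6 comparisons. Grey bars span the 10th to the 90th percentile of 12243 genes, black ticks mark their median, and dotted lines mark 1.5-fold. The points lie to the right of the median in both comparisons of an IFNG-treated list with its counterpart without IFNG, and inside the dotted lines in all 6.

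Loops were also matched between lists when both anchors lay within 25 kb. Of the 41 cluster loops of IFNG, 8 (19.5%, 10.2 to 34.0) had no match in M0[CTR], against 13.0% of the whole IFNG list. With matching widened to 50 kb, 2 of the 41 had none. None of the 28 loops of M0[CTR] lacked a match in IFNG. A count of 0 of 28 allows a share of up to 10.7% taken as 3 counts, or up to 12.1% by the Wilson interval, which takes in the 12.0% of the whole list. Both limits take the 28 loops as independent. With touching bin pairs merged they form 2 groups, so the true limits are likely wider. The 8 included 4 loops at the Ccl12 and Ccl8 region, namely Ccl7 to Ccl12, Ccl12 to Ccl1, the -50 kb bin to Ccl8 and Ccl11 to the 90 kb bin. The last had 36 contacts, 0.72 times the median at its span. Of the 47 loops of pIL-4 + IFNG, 6 (12.8%, 5.98 to 25.2) had no match in M2p[pIL-4] (11.4% of the list), and of the 35 of M2p[pIL-4], 2 had none in pIL-4 + IFNG (11.3%). Ccl12 to Ccl1 was not among the 6, since M2p[pIL-4] had a loop with 36 contacts from the 50 kb bin to the bin before Ccl1 within the allowed distance.

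In the other comparisons the share of cluster loops without a match was below that of the list. The Wilson interval took in the list's share in each case but 1, that of pIL-4 + IFNG against IFNG. The 47 loops of that list form 9 groups of touching bin pairs, so its interval is likely too narrow and this case is not a result. Of the 29 loops of M2[IL-4], 1 had none in M0[CTR] (13.6% of the list), and 0 of 28 the other way (10.8%). Of the 35 loops of M2p[pIL-4], 2 had none in M0[CTR] (14.1%), and 0 of 28 the other way (8.88%). Of those 35, 2 had none in M2[IL-4] (12.9%), and 1 of 29 the other way (10.1%), a 560 kb loop from inside Asic2 with 16 contacts. Of the 47 loops of pIL-4 + IFNG, 1 had none in IFNG (2.13%, 0.377 to 11.1, against 13.5%), and 2 of 41 the other way (9.17%). The loops called after IL-4 were thus mostly at or beside positions also called in untreated macrophages, as were most loops of the whole lists. More of the cluster's loops lacked a match when the same bins were required, as given below.

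Genes with loop numbers over the 5 lists like those of Ccl2 were sought on other chromosomes only, which left out its neighbours in the cluster. By Euclidean distance of the centred log2 scaled loop numbers, over 5 lists, the nearest were Enah (0.094), Commd8 (0.10), Spata13 (0.11), Phyhip (0.12) and Lrrc8d (0.13), against a median of 0.72 over 10981 genes. Spata13 had 16, 16, 20, 23 and 27 loops and Lrrc8d 34, 37, 41, 51 and 57, both with the highest numbers in the IFNG-treated lists. That order follows from the search, which picked genes by their likeness to Ccl2 over the same 5 lists.

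Among the other CC chemokine ligands, 11 of 15 could be tested, and 0 passed 1.5-fold higher in any comparison. Of all genes tested, between 4.45% and 10.2% passed in a given direction and comparison. Ccl28, a mucosal chemokine, was lower in IFNG over M0[CTR] (3 loops against 5, log2 ratio -0.62) and in pIL-4 + IFNG over M2p[pIL-4] (5 against 9, -0.72), and it was the 1 ligand past the fold. The second CC cluster of the chromosome, Ccl3 to Ccl9, had 69, 60, 79, 66 and 64 loops, and 0 loops in any list joined it to the Ccl2 cluster. Among CC and atypical receptors, 10 of 13 could be tested, and at most 2 passed higher and 2 lower in a comparison, with 0 each way in M2p[pIL-4] over M2[IL-4] and in pIL-4 + IFNG over M2p[pIL-4]. Ackr2, a scavenger receptor for many inflammatory CC chemokines including Ccl2, had 0 loops within 100 kb in M0[CTR] and 8, 7, 7 and 9 in the other lists. Ccr9 had 13, 17, 20, 5 and 21, lowest with IFNG alone, and its log2 ratio of 1.62 was the highest among receptors for pIL-4 + IFNG over IFNG. Ackr1, a non-signalling receptor, had 12, 6, 7, 8 and 8, and Ccr7 had 3, 9, 11, 9 and 14. The ratios of Ackr2 and Ccr7 to M0[CTR] rest on 0 and 3 loops of that 1 list. Ackr2 was tested only because of its loops in the treated lists. With 10 receptors, these counts past the fold are a description. Ccr2 itself, the receptor of Ccl2, had 55, 52, 58, 54 and 64.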

How the data were processed

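Hi-C was made from BMDMs of 5 groups with 2 samples each. Per the labels, the authors worked on mm10 and used FastQC, Bowtie2, HiC-Pro, Juicer and HOMER, and their methods name nf-core/hic, KR-normalised maps and HICCUPS at a coarser bin. The deposited lists hold whole-number contact counts (column 8) for pairs of 10 kb bins called as loops, 1 merged list per group, without FDR. The caller and threshold behind them are not given in the sources used here. The study gives read pairs as a range over the untreated, IL-4 and washout libraries and not for each list. It gives no depth for the IFNG-treated libraries, so counts were not scaled by depth.

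Loops were read with Python 3.11.15, pandas 2.3.3, numpy 2.4.6 and scipy 1.17.1. The TSS was the 5′ end of the principal transcript (GENCODE M21, GRCm38). Loop numbers were compared as log2 of (loops + 1), scaled by list length, over 12243 protein-coding genes with a mean of at least 5 loops, and 1.5-fold was the call. The counting script was tested on simulated lists. Strength is a count over the median count at that span. Shares have Wilson intervals, counts exact Poisson intervals and ratios exact binomial intervals. No test of conditions was run, since each group had 1 list.

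Named loops were the 5 strongest called in all 5 lists, the strongest from each gene's bin, the most extreme ratios and the strongest of some list patterns. Named genes were the 6 members, the 5 nearest profiles to Ccl2 on other chromosomes and chemokine genes with extreme ratios. Other loops and genes, Ccr2, the interferon-response and TATA motifs and the Ccl12 to Ccl8 window were picked after their values were seen. The members and lists were chosen with earlier results of these data known. Alternatives changed the window, matching distance, scaling, pseudocount, filter, list length and TSS. One motif of the planned search is not reported here.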

Additional observations from a re-analysis of the deposited data

How the results depend on the processing

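No paired analysis was possible because 1 merged list stood for both samples of a group, and for the same reason no replicate could be left out. Over windows of 25 and 50 kb, pseudocounts of 0.5 and 2, no scaling, no adjacent-bin loops, equal list lengths and the start of the Ccl1 gene record, the log2 ratio of the cluster ran from 0.42 to 0.53 for IFNG over M0[CTR] and from 0.34 to 0.54 for pIL-4 + IFNG over M2p[pIL-4]. It ran from -0.11 to 0.05 for M2[IL-4] over M0[CTR], from -0.06 to 0.31 for M2p[pIL-4] over M0[CTR] and from -0.14 to 0.19 for pIL-4 + IFNG over IFNG, changing sign in these 3, and stayed above 0 for M2p[pIL-4] over M2[IL-4], at up to 0.26. Merging touching bin pairs, which joins the dense block at Ccl1 into few groups, left 2 loops untreated, 7 with IL-4, 7 after washout, 12 with IFNG and 9 with both, and ratios to M0[CTR] of 1.32, 1.22 (washout) and 2.08 (IFNG). The other merged ratios were -0.12 for M2p[pIL-4] over M2[IL-4], 0.33 for pIL-4 + IFNG over M2p[pIL-4] and -0.57 for pIL-4 + IFNG over IFNG. Of 36 ratios of single genes, 0 reached 1.5-fold as reported, 6 did within 50 kb (given above), and 6 did within 25 kb, of which 4 were of Ccl12 and 2 of Ccl8. Those within 25 kb rested on few loops. Ccl12 had 1 against 0 in both M2[IL-4] and M2p[pIL-4] over M0[CTR]. In IFNG over M0[CTR], Ccl12 had 5 against 0 and Ccl8 4 against 0. In pIL-4 + IFNG over M2p[pIL-4] they had 9 against 1 and 6 against 0. At equal list lengths 5 ratios reached 1.5-fold, those of Ccl2, Ccl7, Ccl11, Ccl12 and Ccl8 in pIL-4 + IFNG over M2p[pIL-4]. From the start of its gene record Ccl1 did in all 3 comparisons with M0[CTR], with 2 loops after IL-4, 2 after washout and 4 after IFNG, against 0. With merging 18 did in the higher and 3 in the lower direction. For 25 kb, equal list lengths, the gene record and merging, the share of all genes past 1.5-fold was not taken. The counts in these settings therefore show how the calls depend on processing and are not a result about the genes. Without the filter on few loops, the share of genes past 1.5-fold rose to between 7.71% and 13.0%.

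Matching in the same bins left more loops without a match, namely 8 of M2[IL-4] (7 the other way), 13 of M2p[pIL-4] (6) and 18 of IFNG (5) against M0[CTR], 12 of M2p[pIL-4] against M2[IL-4] (6), and 20 of pIL-4 + IFNG against M2p[pIL-4] (8) as well as 20 against IFNG (14). Matching within 50 kb left 2 of IFNG without a match in M0[CTR], 1 of pIL-4 + IFNG in M2p[pIL-4], 0 of pIL-4 + IFNG in IFNG and 1 the other way. With equal list lengths, M2p[pIL-4] had 1 loop without a match in M0[CTR], 1 in M2[IL-4] and 1 in pIL-4 + IFNG. With neighbouring bins added, loops joining promoter bins numbered 8, 10, 8, 11 and 14. The Ccl12 and Ccl8 start-site bins had 0 loops in the 3 lists without IFNG also with neighbouring bins added, where IFNG had 4 and pIL-4 + IFNG 6, and at equal list lengths, where both had 3. These last settings, and the Ccl1 gene record, were chosen after seeing the data.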
